A study of Homo sapiens with 8 samples.

Results

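The AP-1 genes examined here were FOS, FOSB, FOSL1, FOSL2, JUN, JUNB, JUND, ATF3 and MAFF, chosen by name as known partners of mSWI/SNF complexes at enhancers. Earlier results of these data were known when they were chosen. All 9 were among the 69215 genes listed in the count tables, and all 9 passed the filter on low counts that left 15931 genes for testing. Their RNA was measured in G401, an established kidney rhabdoid tumor line that has lost SMARCB1, a core mSWI/SNF subunit. Both lines studied were G401 cells carrying a Tet-On transgene that doxycycline (Dox) switches on, encoding SMARCB1 in one line and GFP in the other. After 12 h in 0.1 µg/ml Dox or in dimethylsulfoxide (DMSO), the solvent, there were 4 groups of 2 RNA-seq libraries, named GFP DMSO, GFP Dox, SMARCB1 DMSO and SMARCB1 Dox. All 4 groups share the loss of the cells' own SMARCB1. For each condition 6 plates were combined at harvest, and the sources do not say whether each line is 1 clone.

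AP-1 is a family of dimers. The FOS proteins (FOS, FOSB, FOSL1, FOSL2) cannot pair with each other and bind DNA as partners of the JUN proteins (JUN, JUNB, JUND), through leucine zippers, at the TRE element TGACTCA. FOS, FOSB, JUN, JUNB and ATF3 are immediate-early genes that serum, growth factors or stress switch on within minutes, whereas JUND is made steadily. ATF3 is a stress-induced relative that prefers the CRE element TGACGTCA, and MAFF is a small MAF protein that has no activation domain of its own. AP-1 dimers hold many enhancers open together with mSWI/SNF, which is why re-expression of SMARCB1 raises the question of whether the AP-1 genes themselves change.

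Counts assigned to genes ranged from 29632090 to 37597477 per library, and mitochondrially encoded genes took 18.9% to 27.9% of them. Reads of SMARCB1 numbered 30474 and 29383 in SMARCB1 Dox, 10 and 21 in SMARCB1 DMSO and 0 in every GFP library. The rhabdoid markers VIM, KRT8 and KRT18 were present in all groups, from 227 ± 21.8 CPM for KRT18 in SMARCB1 Dox to 1280 ± 41.7 CPM for VIM in SMARCB1 DMSO (SD, n = 2). All 7 markers of blood, endothelial, kidney and liver cells stayed too low to be tested. CPM are counts put on a common scale with edgeR's TMM factors, and each ± is the SD over 2 libraries unless said otherwise. In RNA from whole cultures, more RNA per cell and more cells that express a gene cannot be told apart.

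The sequences just upstream of 5 of the genes are shown because they place in view letter matches to elements that AP-1 and CREB-type factors are known to bind. They were taken from RefSeq on GRCh38.p14, which had a promoter for 8 of the 9 genes (all but FOSL1), 10 windows in all. Each is the longest run free of annotated exons within the 250 bases before the RefSeq start, written 5′ to 3′ on the strand of the gene. FOS lies on the plus strand (chr14:75278578-75278825), as do FOSL2 (chr2:28392608-28392801) and ATF3 (chr1:212565157-212565333, the upstream of its 2 starts). JUN (chr1:58784049-58784269) and JUND (chr19:18281623-18281872) lie on the minus strand. Capitals mark TGACGTCA, its variant TGACATCA and the half-site TGACG, which reads CGTCA when it lies on the other strand, the half-site having been added after the sequences were read.
FOS: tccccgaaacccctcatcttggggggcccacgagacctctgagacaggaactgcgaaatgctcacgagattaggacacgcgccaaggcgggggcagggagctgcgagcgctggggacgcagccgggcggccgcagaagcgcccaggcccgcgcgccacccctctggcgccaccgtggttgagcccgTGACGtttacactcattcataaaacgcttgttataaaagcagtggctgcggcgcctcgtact
FOSL2: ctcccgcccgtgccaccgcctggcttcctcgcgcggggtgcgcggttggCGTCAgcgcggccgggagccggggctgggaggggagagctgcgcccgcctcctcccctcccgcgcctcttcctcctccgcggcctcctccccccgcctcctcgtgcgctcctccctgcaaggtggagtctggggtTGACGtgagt
JUN: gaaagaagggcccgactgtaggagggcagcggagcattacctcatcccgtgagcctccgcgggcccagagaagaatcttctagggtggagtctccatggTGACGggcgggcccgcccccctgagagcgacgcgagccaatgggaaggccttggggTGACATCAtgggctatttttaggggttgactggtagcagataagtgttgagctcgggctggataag
JUND: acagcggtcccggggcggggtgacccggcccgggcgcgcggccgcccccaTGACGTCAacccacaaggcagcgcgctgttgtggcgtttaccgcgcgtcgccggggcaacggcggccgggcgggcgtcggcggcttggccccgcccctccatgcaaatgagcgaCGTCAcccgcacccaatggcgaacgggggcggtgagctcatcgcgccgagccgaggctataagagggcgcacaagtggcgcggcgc
ATF3: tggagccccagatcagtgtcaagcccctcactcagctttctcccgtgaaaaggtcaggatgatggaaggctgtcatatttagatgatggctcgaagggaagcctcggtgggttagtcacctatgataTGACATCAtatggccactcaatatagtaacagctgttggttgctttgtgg

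None of the 10 windows held TGACTCA in either direction, a match that 4.20% of 35116 RefSeq promoters of this length had. The full CRE TGACGTCA was found for JUND, at -200 to -193 from its start, and for MAFF at -54 to -47, where 1.65% of promoters have it. Both MAFF windows consist wholly of annotated MAFF exon. The variant TGACATCA, an element through which JUN is known to act on its own promoter, was at -67 to -60 of JUN and at -123 to -116 of the upstream ATF3 start, with 2.38% of promoters having it on either strand. The half-site TGACG, which the CRE contains, was in 21.2% of promoters and in the windows of FOS, FOSB, FOSL2, JUN, JUNB, JUND and MAFF. A CArG box (the SRF element, searched on both strands) was in none of the windows and in 1.16% of promoters. Bases farther than 250 upstream of the start, and other variants of these elements, were not searched. These are matches of letters within the window and show no binding.

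By GENCODE on GRCh38, 3 of the genes lie on chromosome 19, FOSB at positions 45467995 to 45475179, JUNB at 12791486 to 12793315 and JUND at 18279694 to 18281622. JUN (58776845 to 58784048) and ATF3 (212565334 to 212620777) lie on chromosome 1. FOS is on chromosome 14 (75278826 to 75282230), FOSL1 on chromosome 11 (65892049 to 65900573), FOSL2 on chromosome 2 (28392448 to 28417317) and MAFF on chromosome 22 (38200767 to 38216507). All are protein-coding, and JUNB and JUND consist of 1 exon.

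Compared per kb of exon, JUND and FOSL1 made up most AP-1 RNA in every group. JUND stood at 54.2 ± 0.352 CPM per kb in SMARCB1 DMSO, 60.7 ± 1.47 in SMARCB1 Dox, 43.5 ± 2.84 in GFP DMSO and 43.7 ± 0.287 in GFP Dox. FOSL1, the FOS-family member that accumulates in invasive and RAS-driven cells, came next with 20.6 ± 3.18, 26.8 ± 3.13, 29.2 ± 2.10 and 29.2 ± 1.63 CPM per kb in the same order. A middle tier followed between 3.19 and 6.23 CPM per kb, made of ATF3, FOSL2 and JUNB in the SMARCB1 line and of JUNB, FOSL2, FOS and ATF3 in the GFP line.

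The order within that tier, and below it, depended on the line. In SMARCB1 DMSO, FOSL2 (3.56 ± 0.233 CPM per kb) and JUNB (3.51 ± 0.167) lay within 1 SD of each other. So did FOS (0.887 ± 0.299), JUN (0.734 ± 0.127) and MAFF (0.674 ± 0.257) below them. In SMARCB1 Dox the same held for ATF3 (6.23 ± 0.927) and FOSL2 (6.03 ± 0.958), and for MAFF (0.749 ± 0.265) and FOS (0.720 ± 0.129), with JUN above both at 1.47 ± 0.634. FOSB was lowest in both groups, at 0.194 ± 0.00462 and 0.156 ± 0.0160 CPM per kb. In the GFP line FOS stood among the middle tier, at 4.11 ± 0.199 CPM per kb with DMSO and 5.03 ± 0.145 with Dox, where it lay within 1 SD of JUNB (5.16 ± 0.102). JUN was there at the bottom with FOSB, at 0.204 ± 0.0464 against 0.174 ± 0.0267 CPM per kb with DMSO and 0.158 ± 0.0966 against 0.187 ± 0.000121 with Dox, and neither pair was separated by its spread.

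**Figure D1:**
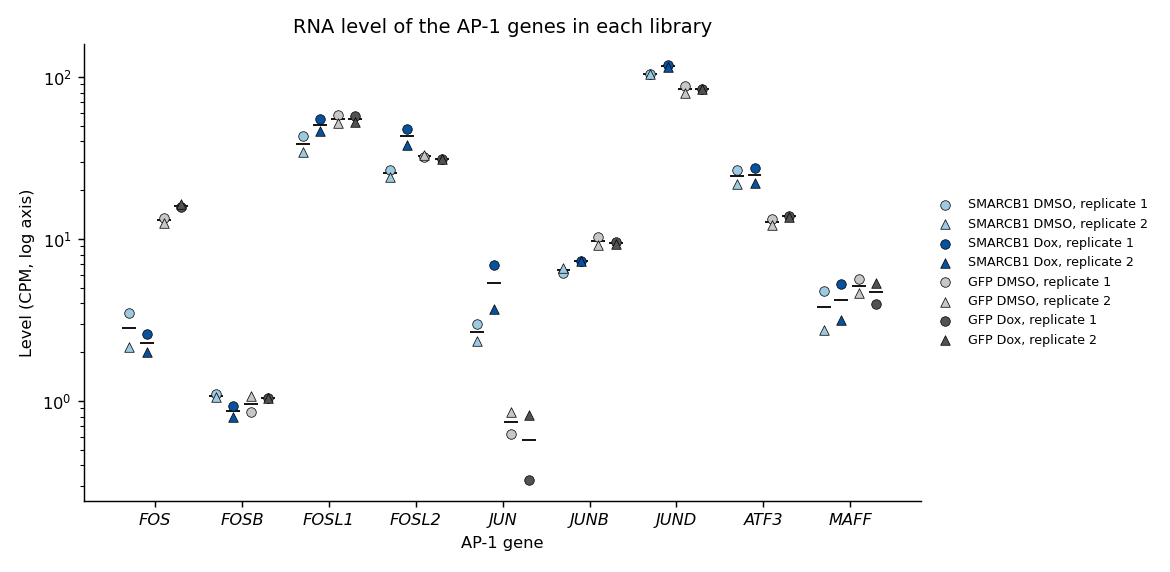
RNA level of each AP-1 gene in CPM (log axis) in the 8 libraries, by group (colour) and replicate (circle, triangle), with a bar at the mean of each pair. JUND is highest at 80.0 to 119 CPM, and FOS and JUN are the genes whose SMARCB1 (blue) and GFP (grey) libraries stand farthest apart, in opposite directions.

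Re-expression of SMARCB1 was followed by more RNA of FOSL2 and, less firmly, of JUN and FOSL1. The call was lost for FOSL1 with a correction for GC content and for JUN with DESeq2. Neither of these genes was called for the difference from the GFP line, whereas FOSL2 was. Comparing SMARCB1 Dox with SMARCB1 DMSO, FOSL2 rose 1.70-fold, JUN 2.0-fold and FOSL1 1.30-fold, and none was called lower. These 3 of 9 called genes, all higher, stand against 14% of all genes tested that were called (8.33% higher and 5.69% lower). The 2234 calls over all genes became 1284 without SMARCB1 Dox replicate 1 and 1462 without SMARCB1 DMSO replicate 1. The median log2 fold change of the 9 genes was 0.16, and that of all genes tested was -0.004. Scaling to library totals in place of TMM moved the latter to 0.088 and the share of higher calls from 59.4% to 80.0%, so small positive changes depend on the scaling.

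Among the FOS family, FOSL2 changed most clearly. Its levels were 26.7 and 24.3 CPM in SMARCB1 DMSO and 48.0 and 38.3 CPM in SMARCB1 Dox. Both Dox libraries lay above both DMSO libraries, and also above the 4 GFP libraries at 31.2 to 33.2 CPM. On the log2 scale this was a change of 0.76 ± 0.104 (standard error, edgeR quasi-likelihood test, Benjamini-Hochberg adjusted p = 2.44e-05). FOSL2, also called FRA2, is a FOS protein without the strong activation domain of FOS. It was called under each alternative processing and with any 1 of the 4 libraries left out, at log2 fold changes from 0.59 to 0.91.

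FOSL1 had 43.1 and 34.6 CPM in SMARCB1 DMSO against 54.7 and 46.4 CPM in SMARCB1 Dox, and the Dox libraries again lay above the DMSO libraries, by less than the gap between the DMSO replicates at their nearest point. The log2 fold change of 0.38 had a standard error of 0.106 (edgeR, Benjamini-Hochberg adjusted p = 0.0174). The call was lost with a correction for GC content (0.28, edgeR adjusted p = 0.101). It was also lost without SMARCB1 DMSO replicate 2 (0.23, edgeR adjusted p = 0.222) or without SMARCB1 Dox replicate 1 (0.26, edgeR adjusted p = 0.24).

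FOS itself, the founding member, had 3.50 and 2.15 CPM with DMSO and 2.58 and 2.0 CPM with Dox. The ranges overlapped and the change was not called (log2 fold change -0.29, 95% interval -0.73 to 0.16). FOSB had the fewest reads in the SMARCB1 line, and 28 to 41 counts in any of the 8 libraries. It had 1.10 and 1.06 CPM with DMSO and 0.927 and 0.801 CPM with Dox (-0.32, interval -1.03 to 0.39), a difference not detectable at this depth.

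Of the JUN family, JUN rose from 2.98 and 2.34 CPM in SMARCB1 DMSO to 6.94 and 3.69 CPM in SMARCB1 Dox. The libraries of the 2 groups did not overlap, but the Dox replicates (247 and 129 counts) differed by 0.90 on the log2 scale, almost as much as the groups did. The log2 fold change of 1.00 had a standard error of 0.288 (edgeR, Benjamini-Hochberg adjusted p = 0.0216). Without SMARCB1 Dox replicate 1 it fell to 0.48 and was no longer called (edgeR adjusted p = 0.482), and without SMARCB1 DMSO replicate 2 it was 0.83 (edgeR adjusted p = 0.125). DESeq2 gave the same 1.00 with an adjusted p of 0.0627.

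JUNB and JUND, the JUN proteins that often dampen growth, were not called. JUNB had 6.21 and 6.64 CPM with DMSO and 7.28 and 7.35 CPM with Dox (log2 fold change 0.19, interval -0.11 to 0.48). JUND had 105 and 104 CPM with DMSO and 119 and 115 CPM with Dox (0.16, interval -0.0004 to 0.33). For both genes the Dox libraries lay above the DMSO libraries, but the direction for JUND, the gene of highest exon GC content here at 69.9%, turned with a GC correction (-0.055). An exon of JUNB overlaps HOOK2 on the opposite strand over 259 bases, 14.2% of the JUNB exon, and whether the counting used strand is not stated, so the JUNB count is uncertain by what those bases carry.

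The stress gene ATF3 showed no change that could be detected, with 26.8 and 21.8 CPM in SMARCB1 DMSO and 27.5 and 22.3 CPM in SMARCB1 Dox (log2 fold change 0.04, interval -0.21 to 0.29). MAFF had 4.80 and 2.76 CPM with DMSO and 5.25 and 3.15 CPM with Dox (0.16, interval -0.36 to 0.69). In both genes the replicates of 1 group differed by more than the groups. MAFF shares 326 exon bases with PLA2G6 on the opposite strand, which had 40 to 73 counts.

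**Figure D2:**
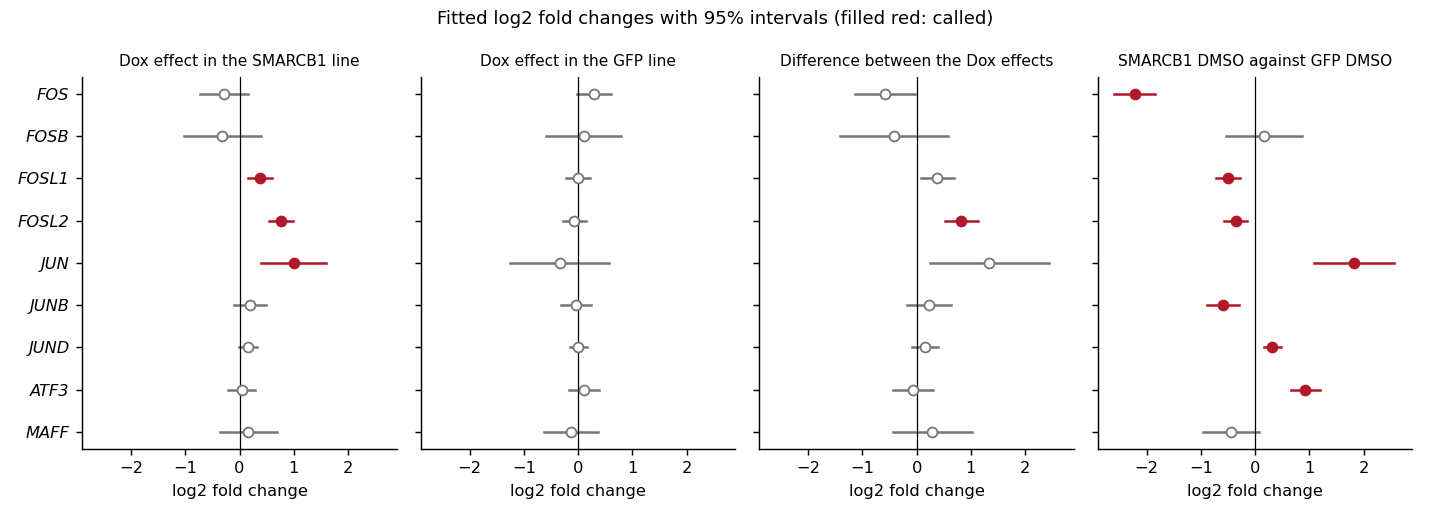
Fitted log2 fold changes of the 9 AP-1 genes with 95% intervals (lines) in the 4 comparisons, with called genes (edgeR, Benjamini-Hochberg adjusted p under 0.05) as filled red points. FOSL1, FOSL2 and JUN are red for Dox in the SMARCB1 line, FOSL2 alone for the difference between the lines, and 7 genes for SMARCB1 DMSO against GFP DMSO.

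In the GFP line, which controls for Dox together with the switching on of a transgene, no AP-1 gene passed the test. Of the 9 genes, 0 were called by edgeR, against 0% of all genes tested, and 0 had an unadjusted p under 0.05. Over all genes, 266 had an unadjusted p under 0.05 in edgeR and 103 in DESeq2, which called 0 as well. FOS came nearest, with 13.5 and 12.6 CPM in GFP DMSO and 15.7 and 16.3 CPM in GFP Dox. Both Dox libraries lay above both DMSO libraries (log2 fold change 0.29, interval -0.02 to 0.61). FOSL2 had 32.2 and 33.2 CPM with DMSO and 31.2 and 31.2 CPM with Dox. FOSL1 had 57.9 and 52.3 against 57.3 and 52.9 CPM. For FOSL2 the Dox libraries lay just below the DMSO libraries, and for FOSL1 they lay between them. JUND (87.7 and 80.0 against 84.7 and 83.9 CPM), JUNB (10.2 and 9.20 against 9.58 and 9.32 CPM) and FOSB (0.859 and 1.07 against 1.04 and 1.04 CPM) also had both Dox libraries within the range of the DMSO libraries. ATF3 had 13.4 and 12.2 against 13.8 and 13.7 CPM (0.11, interval -0.16 to 0.38) and MAFF 5.63 and 4.66 against 3.99 and 5.36 CPM (-0.13, interval -0.63 to 0.37). JUN had only 10 to 33 counts in any GFP library (0.622 and 0.860 CPM with DMSO, 0.325 and 0.820 with Dox), and its interval of -1.26 to 0.58 includes a fall of 2-fold.

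The difference between the Dox effects asks whether a gene responded to Dox otherwise in the SMARCB1 line than in the GFP line, where Dox switches on GFP. FOSL2 was the 1 AP-1 gene of 9 for which it passed the test, at 0.83 on the log2 scale with a standard error of 0.146 (edgeR, Benjamini-Hochberg adjusted p = 0.00139, interval 0.52 to 1.13). Of all genes tested, 4.71% were called for the difference, 3.07% with the higher change in the SMARCB1 line and 1.64% with the lower. These 750 calls became 390 to 497 without SMARCB1 Dox replicate 1 or any 1 GFP library. JUN had the widest difference, 1.34 with an interval of 0.25 to 2.44, and was not called (edgeR, Benjamini-Hochberg adjusted p = 0.184). FOSL1 (0.38, interval 0.08 to 0.69) and FOS (-0.58, interval -1.13 to -0.03) were not called either. The rises of JUN and FOSL1 in the SMARCB1 line were thus not shown to differ from the values in the GFP line. Each of these 3 genes passed when 1 library was left out: JUN without SMARCB1 Dox replicate 2 (1.73, edgeR adjusted p = 0.0474), FOSL1 without SMARCB1 DMSO replicate 1 (0.55, edgeR adjusted p = 0.0325) and FOS without SMARCB1 DMSO replicate 2 (-0.90, edgeR adjusted p = 0.0396).

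**Figure D3:**
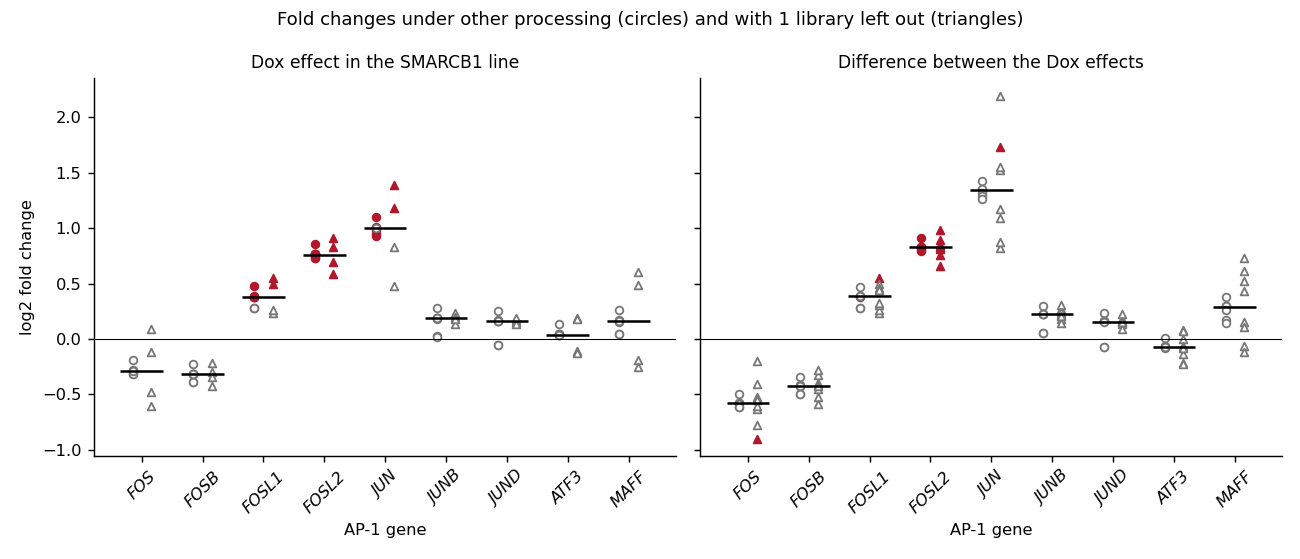
Log2 fold changes of each AP-1 gene under other processing (circles) and with 1 library left out (triangles), for Dox in the SMARCB1 line (left) and the difference between the Dox effects (right), with the reported value as a bar and called values in red. FOSL2 is red at every point in both panels, whereas JUN spreads from 0.48 to 1.39 on the left.

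More AP-1 genes differed between the lines without Dox than changed with Dox in either line, 7 of 9 against 3 and 0. Comparing SMARCB1 DMSO with GFP DMSO, FOS was 4.66-fold lower in the SMARCB1 line, JUN was 3.54-fold higher and ATF3 was 1.90-fold higher. JUN, ATF3 and JUND were higher in the SMARCB1 line, and FOS, FOSL1, JUNB and FOSL2 were lower. Of all genes tested, 32% were called (16.3% higher and 15.7% lower in the SMARCB1 line), so calls were common. The median over the 9 genes was -0.36 and that over all genes was 0.015.

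FOS had 3.50 and 2.15 CPM in SMARCB1 DMSO and 13.5 and 12.6 CPM in GFP DMSO. Every library of the SMARCB1 line, Dox included, had at most 102 FOS counts, and every library of the GFP line had at least 457. The log2 fold change of -2.22 had a standard error of 0.181 (edgeR, Benjamini-Hochberg adjusted p = 1.93e-09). JUN went the other way, with 2.98 and 2.34 CPM against 0.622 and 0.860 CPM (log2 fold change 1.82, standard error 0.358, edgeR adjusted p = 0.000378). The 4 SMARCB1-line libraries held 77 to 247 JUN counts, and the 4 GFP-line libraries 10 to 33, with no overlap. Per kb, FOS and JUN were about level in SMARCB1 DMSO (0.887 and 0.734 CPM per kb), while FOS far exceeded JUN in GFP DMSO (4.11 and 0.204). ATF3 had 26.8 and 21.8 CPM against 13.4 and 12.2 CPM, again with no overlap (0.93, standard error 0.126, edgeR adjusted p = 4.52e-06).

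The other differences were smaller. JUNB had 6.21 and 6.64 against 10.2 and 9.20 CPM (log2 fold change -0.59) and FOSL1 43.1 and 34.6 against 57.9 and 52.3 CPM (-0.51). Both were lower in each SMARCB1 DMSO library than in either GFP DMSO library. JUND had 105 and 104 against 87.7 and 80.0 CPM (0.32), a call lost with scaling to library totals (0.20, edgeR adjusted p = 0.0862) and without GFP DMSO replicate 2 (0.25, edgeR adjusted p = 0.103). FOSL2 had 26.7 and 24.3 against 32.2 and 33.2 CPM (-0.36), a call lost without SMARCB1 DMSO replicate 2 (-0.30, edgeR adjusted p = 0.0867) or GFP DMSO replicate 2 (-0.35, edgeR adjusted p = 0.068). MAFF (-0.45, interval -0.97 to 0.06) and FOSB (0.16, interval -0.54 to 0.86) were not called. MAFF passed without SMARCB1 DMSO replicate 1 (-0.89, edgeR adjusted p = 0.0177) and, with scaling to library totals, at -0.58 (edgeR adjusted p = 0.0433). That scaling moved the median of all genes in this comparison to -0.101 and the share of higher calls from 50.9% to 32.1%. The mitochondrial share was 27.9% and 23.9% in SMARCB1 DMSO, 21.5% and 21.0% in GFP DMSO and 22.9% and 21.3% in SMARCB1 Dox, and its part in these differences was not tested. KRT8 and KRT18 were lower and VIM higher in SMARCB1 DMSO than in GFP DMSO (log2 fold changes -0.63, -0.55 and 0.86). The SMARCB1 DMSO libraries enter both this comparison and the Dox effect in the SMARCB1 line, so FOSL1 and FOSL2, lower in the first and higher in the second, are not independent across them.

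**Figure D4:**
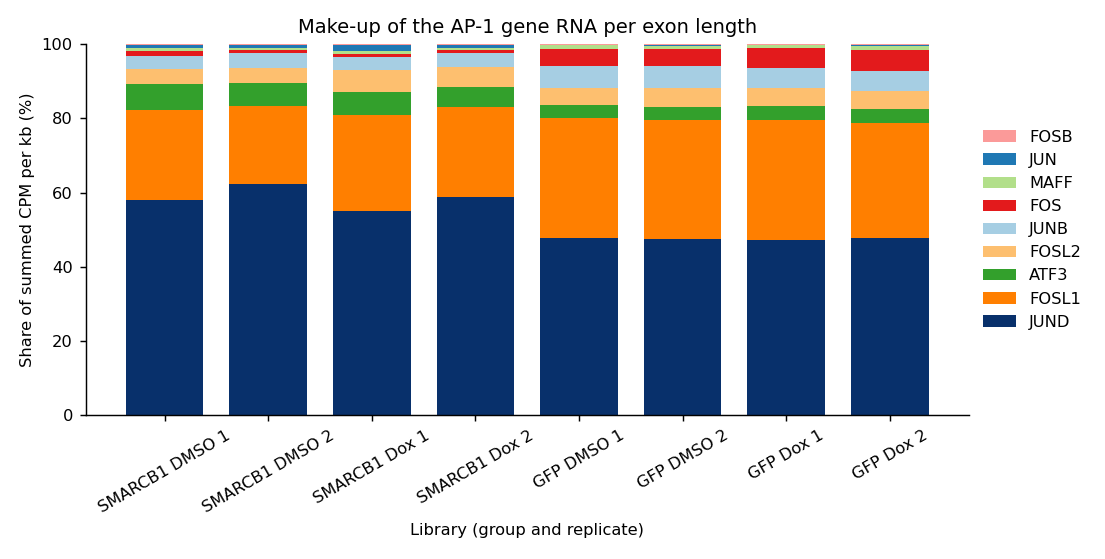
Share of each AP-1 gene in the summed CPM per kb of the 9 genes, for each library. JUND and FOSL1 fill 78.7% to 83.3% of every bar, the FOS band (red) is visible in the GFP libraries, and JUN (mid blue) in the SMARCB1 libraries.

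As shares of the summed CPM per kb of the 9 genes, JUND took 60.0 ± 3.04% in SMARCB1 DMSO, 56.9 ± 2.62% in SMARCB1 Dox, 47.7 ± 0.138% in GFP DMSO and 47.5 ± 0.529% in GFP Dox. FOSL1 took 22.7 ± 2.22%, 25.0 ± 1.17%, 32.0 ± 0.303% and 31.7 ± 1.21% in the same order. FOS took 0.973 ± 0.275% and 0.671 ± 0.0737% in the SMARCB1 line but 4.51 ± 0.0634% and 5.46 ± 0.254% in the GFP line. The FOS family together summed to 25.2 ± 3.71 CPM per kb in SMARCB1 DMSO, 33.7 ± 4.23 in SMARCB1 Dox, 38.1 ± 2.18 in GFP DMSO and 38.8 ± 1.49 in GFP Dox. Of the SMARCB1 Dox libraries, 1 at 36.7 lay just inside the range of the 4 GFP libraries, 36.5 to 39.8, and the other at 30.7 lay below it. The JUN family summed to 58.5 ± 0.311, 66.2 ± 2.08, 49.0 ± 3.19 and 49.0 ± 0.292 CPM per kb, and in each SMARCB1-line library it was above that of each GFP-line library. The sum of all 9 genes was 90.5 ± 5.17, 106.9 ± 7.50, 91.2 ± 5.70 and 92.1 ± 1.63 CPM per kb, so the lines differed in make-up while their sums without Dox lay within the spread.

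The genes around AP-1 were followed in 4 lists, counted rather than tested as sets, and each count is given beside the share of all genes called in that comparison. The lists were chosen with earlier results of these data known, so these counts are a description only. The first held 19 other bZIP genes whose proteins pair with FOS, JUN, ATF3 or the small MAFs, 15 of them tested. With SMARCB1 re-expression 1 rose and 1 fell, 2 of 15, where 14% of all genes were called, so the list was close to that background. JDP2, a JUN-dimerization protein that represses AP-1 sites, rose from 7.68 ± 0.0535 to 18.6 ± 3.53 CPM (log2 fold change 1.28). NFE2L3, a CNC-type partner of small MAFs, fell from 151 ± 23.0 to 106 ± 8.07 CPM (-0.51). Both were also called for the difference from the GFP line (1.55 and -0.52), where 4.71% of all genes were called, and 0 of the 15 were called in the GFP line. NFE2L2, the oxidative stress factor NRF2, had 228 ± 13.6 CPM in SMARCB1 DMSO and 225 ± 3.81 CPM in SMARCB1 Dox and was not called for the Dox effect. The median of the list was -0.04. Between the DMSO groups 5 were higher in the SMARCB1 line, among them CREB5 (19.2 ± 2.31 against 8.12 ± 0.971 CPM) and BATF3 (5.53 ± 1.64 against 2.45 ± 0.261 CPM). There 4 were lower, including MAFK, another small MAF (2.71 ± 0.486 against 7.99 ± 0.160 CPM). These 9 of 15 stand beside 32% of all genes. The 9 calls became 5 without GFP DMSO replicate 2, and the 2 calls for the difference became 1 without replicate 1 of SMARCB1 DMSO or SMARCB1 Dox or without any 1 GFP library.

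Of 24 genes for the kinases and factors that switch AP-1 genes on, all tested, 8 rose and 2 fell with SMARCB1 re-expression, with a median of 0.13. These 10 of 24 stand beside 14% of all genes called, 8.33% higher and 5.69% lower. The largest rises were those of RPS6KA5 (the kinase MSK1, 3.12 ± 0.00152 to 5.98 ± 0.484 CPM, log2 fold change 0.94) and MRTFA, an actin-regulated cofactor of SRF (20.3 ± 0.104 to 33 ± 0.416 CPM, 0.70). MAP2K3, a kinase of the p38 branch, rose by 0.64 and MAP3K1, which feeds the JNK branch, by 0.55. MAP2K6, the other main p38 kinase kinase, fell from 8.34 ± 1.41 to 4.68 ± 0.622 CPM (-0.83), and ELK3, a partner of SRF and among the most abundant of the list, fell by 0.28. For the difference from the GFP line 4 were called higher (MAP2K3, MRTFA, MAP3K1, MAP2K4) and 1 lower (MAP2K6), 5 of 24 beside 4.71% of all genes. MAP2K6 was also 1 of 7 genes lower in SMARCB1 DMSO than in GFP DMSO, at 8.34 ± 1.41 against 30.3 ± 0.0211 CPM, and 4 were higher, 11 of 24 in all beside 32% of all genes. The 5 calls for the difference became 2 without SMARCB1 Dox replicate 1 or GFP DMSO replicate 2 and 3 without any other library but SMARCB1 DMSO replicate 2. The 11 calls between the DMSO groups became 6 without SMARCB1 DMSO replicate 1 or GFP DMSO replicate 2.

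Of 34 other immediate-early genes, 32 were tested. With SMARCB1 re-expression 9 rose and 3 fell, with a median of 0.23, and these 12 of 32 stand beside 14% of all genes called. CSRNP1, a nuclear factor first found as AXIN1-induced, rose from 6.48 ± 0.0962 to 17.3 ± 0.820 CPM (log2 fold change 1.41). NR4A3, an orphan nuclear receptor, rose by 1.31 (1.05 ± 0.181 to 2.62 ± 0.174 CPM), the kinase gene SGK1 by 0.96 and IER3 by 0.83. EGR1, an immediate-early transcription factor often induced beside FOS, rose from 8.46 ± 3.08 to 14.3 ± 0.577 CPM (0.77). KLF4 (-0.93), ZFP36L1 (-0.51) and MYC (-0.46) fell, ZFP36L1 being the most abundant of the list at 658 ± 19.4 CPM in SMARCB1 DMSO. The difference from the GFP line was called for CSRNP1 (1.36), IER3 (0.88), ZFP36L2 (0.45), MYC (-0.54) and ZFP36L1 (-0.51), 5 of 32 beside 4.71% of all genes. This difference was not called for NR4A3 (0.46), which also rose by 0.85 in the GFP line without a call. Nor was it called for SGK1, EGR1 or KLF4. Between the DMSO groups 8 were higher and 8 lower in SMARCB1 DMSO, 16 of 32 beside 32% of all genes, among them NR4A3 (1.66) and KLF6 (0.99) higher, and SIK1 (-1.86), KLF2 (-1.62) and IER3 (-1.33) lower. The 5 calls for the difference became 9 without SMARCB1 DMSO replicate 1 and 3 without GFP DMSO replicate 2 or GFP Dox replicate 1.

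The last list held 26 genes with well-known AP-1 sites, of which 18 were tested. With SMARCB1 re-expression 5 rose and 4 fell, 9 of 18 beside 14% of all genes called (8.33% higher and 5.69% lower), and the median was 0.02. AXL, a receptor tyrosine kinase, rose from 35.9 ± 4.92 to 90.8 ± 12.4 CPM (log2 fold change 1.34) and the cytokine TGFB1 from 16.5 ± 0.434 to 34.9 ± 7.09 CPM (1.08). IL11 rose by 1.98 from 0.274 and 0.212 to 1.18 and 0.744 CPM, and the urokinase receptor PLAUR rose by 0.63. The secreted proteases MMP10 (5.23 ± 0.114 to 2.52 ± 0.0877 CPM, -1.05) and PLAU, urokinase itself (227 ± 38.0 to 133 ± 5.02 CPM, -0.77), fell. HMGA1 and CCND1, the genes of highest mean CPM in the list over the 8 libraries, were not called for the Dox effect. The difference from the GFP line was called for AXL (1.53), TGFB1 (1.01), MMP10 (-1.05) and PLAU (-0.78), 4 of 18 beside 4.71% of all genes. Between the DMSO groups 5 were higher and 3 lower in SMARCB1 DMSO, 8 of 18 beside 32% of all genes, and the 8 calls became 5 without SMARCB1 DMSO replicate 1. MMP1, the collagenase in whose promoter the TRE was described, had 17.6 ± 3.14 CPM in SMARCB1 DMSO against 1.2 ± 0.186 in GFP DMSO (3.86), and ETS1, a factor that often binds beside AP-1, had 304 ± 15.4 against 21.6 ± 1.11 CPM (3.81). In all 4 lists, 0 genes were called for the Dox effect in the GFP line by edgeR, and 1 tested gene, MMP13, had an unadjusted p under 0.05 there.

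**Figure D5:**
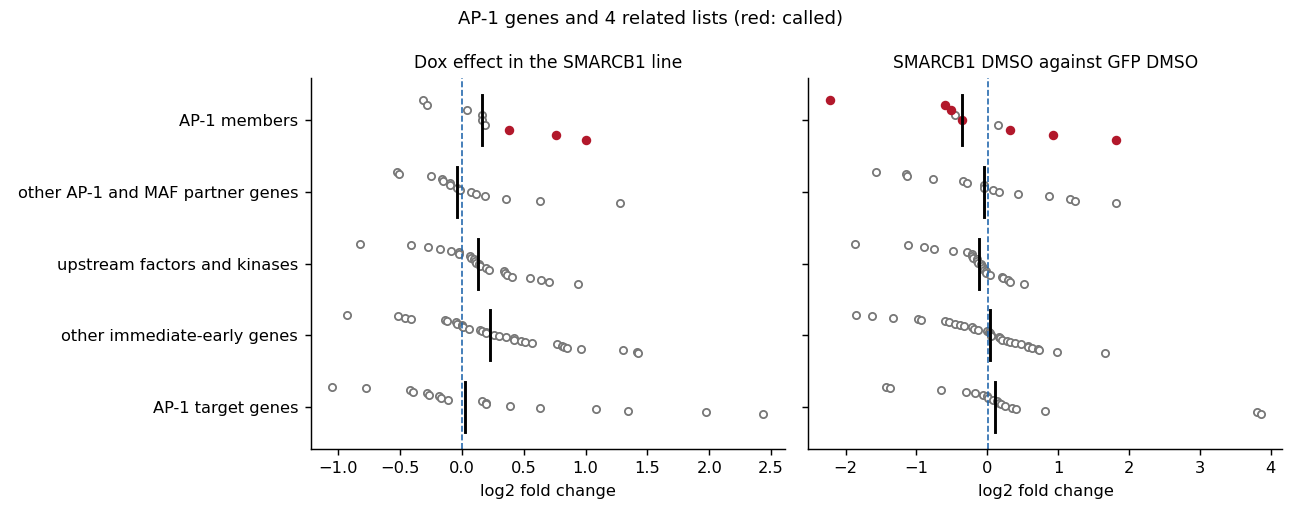
Log2 fold changes of the 9 AP-1 genes and of the tested genes in the 4 related lists, each point a gene. The left panel shows Dox in the SMARCB1 line and the right SMARCB1 DMSO against GFP DMSO. Red marks called AP-1 genes only, and genes of the 4 lists are drawn open whether called or not. A black bar marks each list's median and a dashed line the median of all genes tested (-0.004 and 0.015). On the left, the 3 red points of the AP-1 genes are all above 0. Each of the 4 lists had called genes in both directions in that comparison.

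The gene whose pattern over the 8 libraries was most like that of each called AP-1 gene was sought among 9464 or 9465 protein-coding genes at 5 CPM or more, by the root mean square difference in log2 CPM centred over the libraries. For FOSL2 this was BAG3, a co-chaperone (0.0767), with 15.7, 28.2, 20.5 and 21.5 CPM in SMARCB1 DMSO, SMARCB1 Dox, GFP DMSO and GFP Dox. The nearest to FOSL1 was NPTXR (0.0475), to JUND INPP5A (0.0331) and to ATF3 LMAN2L (0.0720). JUNB was nearest to BTG2 (0.0337), itself an immediate-early gene, with SLC25A1 almost as near (0.0345). JUN, with low counts, had no close match, its nearest being the stress gene TRIB3 at 0.287 (23.3, 34.6, 6.25 and 6.22 CPM in the same order), and FOS was nearest to PPP4R4 at 0.169 (2.39, 2.20, 13.0 and 14.5 CPM). The genes compared share these 8 libraries and the contrast between the lines, and the likeness is a description only.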

How the data were processed

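RNA-seq was analysed in 8 libraries of G401 cells, 2 for each line and treatment, grouped and numbered by the sample titles. The deposited tables give the raw count of reads on each gene. To make them the authors aligned with STAR and counted over exons with HTSeq (intersection-strict, GENCODE 42). The submitters' notes name hg38. Tool versions and the strand option were not given in the sources used here, so counts of genes that overlap others on the opposite strand are uncertain. The labels name a ribosome profiling kit with its library kit and the study's methods a directional total RNA kit, so the library chemistry is uncertain too. The 5 entries that name no gene (27.0% to 29.3% of reads) were left out.

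Gene names, positions, exon lengths (union of exons) and exon GC content came from GENCODE 44 on GRCh38, matched by identifier without version for 62625 of 69215 genes. Those left unmatched took up to 0.000681% of a library's counts. Promoters came from RefSeq (GRCh38.p14).

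The test was edgeR 4.0.16 in R 4.3.3, with filterByExpr, TMM factors and its quasi-likelihood test, fitted to the 8 libraries together with a mean for each group, which assumes that groups share their spread. A gene was called where its p, adjusted by Benjamini-Hochberg over 15931 genes, was under 0.05 in 1 of 4 comparisons (Dox against DMSO in each line, the difference between these effects, and SMARCB1 DMSO against GFP DMSO). Standard errors follow from each fold change and F statistic, and intervals are 95%. The methods name DESeq2 (1.42.0 here), which was run as an alternative beside other scalings, no expression filter, the replicate number as a block, a correction of each library's GC trend, a fit on the 4 libraries compared, and each library left out in turn. The fits were run on simulated counts for each comparison except the difference between the Dox effects, and those outcomes are not reported here. A floor of 3 counts is 0.0798 to 0.101 CPM in 1 library. This floor rests on counts alone, and PCR copies are not independent molecules. The intervals come from the quasi-likelihood fit and carry its estimate of the spread between libraries. Replicates are separate samples of pooled plates. The study's methods speak of duplicate experiments without saying whether the cultures were separate, so p-values measure the spread between these samples, which may be technical.

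The AP-1 genes and the 4 lists were chosen with earlier results of these data known. Genes named in the text were SMARCB1, the 9 AP-1 genes, up to 4 called genes of largest change in each direction per list and comparison, the genes of highest mean CPM in each list, the nearest pattern gene of each called AP-1 gene, and genes overlapping them. A gene that this rule names is not reported here. EGR1 and MMP13 were named after their values were seen.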

Additional observations from a re-analysis of the deposited data

Results flagged for a closer look

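FOSL2 stood out because its response to Dox differed between the lines by a test of the difference itself, 0.83 on the log2 scale (edgeR, Benjamini-Hochberg adjusted p = 0.00139). It was higher in both SMARCB1 Dox libraries than in both SMARCB1 DMSO libraries, while in the GFP line both Dox libraries, at 31.2 and 31.2 CPM, lay just below the DMSO libraries at 32.2 and 33.2 CPM. No group had the 4 samples that a test for a single deviant sample needs.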

How the results depend on the processing

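FOSL2 kept its direction and its call for Dox in the SMARCB1 line, and likewise for the difference between the lines, in each alternative run, at 0.73 to 0.86 and 0.80 to 0.91 on the log2 scale under other processing. Leaving out 1 library gave 1 to 3 called AP-1 genes in the SMARCB1 line and 1 to 2 for the difference. With the replicate number as a block, 2 AP-1 genes were called for the difference, FOSL2 and FOSL1 (0.38, edgeR adjusted p = 0.0205), and with no expression filter 2, FOSL2 and JUN (1.35, edgeR adjusted p = 0.0278). The labels do not say that a replicate number marks a shared batch, so the numbers were not taken as pairs. Replicate deviations correlated at 0.148 between the SMARCB1-line groups and 0.0903 between the GFP-line groups. Between groups of different lines they correlated less, at 0.0309 to 0.0618. Whether a replicate number marks a shared batch was not settled. Over all genes the block raised the calls for the difference from 750 to 1282, and to 1218 with a GC correction. It changed no other AP-1 call. It also raised the calls among the other immediate-early genes for the difference from 5 to 10, and with a GC correction those among the partner genes in the SMARCB1 line from 2 to 4.

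The results that changed sign were uncalled before and after, and the cause was not tested. For JUND a GC correction gave -0.055 in the SMARCB1 line, or -0.055 with the block as well. The difference became -0.073 and -0.074. For ATF3 scaling to library totals gave a difference of 0.0092. For FOSL1 in the GFP line the value was 0.013 with library totals, 0.00055 with no filter, 3.8e-05 with a GC correction and 0.00087 with the block added. Leaving out 1 library, the Dox effect of the SMARCB1 line ran from -0.12 to 0.19 for ATF3, -0.608 to 0.0908 for FOS and -0.25 to 0.61 for MAFF, and the difference from -0.230 to 0.0811 for ATF3 and -0.12 to 0.73 for MAFF. In the GFP line it ran from -0.0410 to 0.268 for FOSB, -0.0788 to 0.0722 for FOSL1, -1.19 to 0.13 for JUN, -0.118 to 0.0378 for JUNB, -0.0632 to 0.0745 for JUND and -0.364 to 0.0566 for MAFF. Depth limits FOSB in every library and JUN in the GFP line, at 10 to 41 counts.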

Other observations

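In the SMARCB1 line, replicate 1 had more RNA than replicate 2 for 8 of the 9 AP-1 genes in both the DMSO and the Dox group. The share of all genes with this order was not counted, so the order is not shown to be particular to the AP-1 genes. On the log2 scale the gap was 0.79 and 0.73 for MAFF, 0.69 and 0.36 for FOS, 0.35 and 0.90 for JUN, 0.32 and 0.24 for FOSL1, 0.30 and 0.30 for ATF3, 0.13 and 0.33 for FOSL2, 0.05 and 0.20 for FOSB and 0.01 and 0.05 for JUND. JUNB (-0.10 and -0.02) did not share this order. In the GFP line (DMSO, then Dox) replicate 1 was the higher in both groups for FOSL1 (0.15 and 0.11), JUNB (0.15 and 0.04), JUND (0.13 and 0.01) and ATF3 (0.13 and 0.01), and the lower in both for JUN (-0.43 and -1.20), at 10 to 33 counts. The gaps differed in sign for FOS (0.10 and -0.06), MAFF (0.27 and -0.42), FOSB (-0.30 and 0.0012) and FOSL2 (-0.04 and 0.00053). The mitochondrial share was also higher in replicate 1 of both SMARCB1-line groups, at 27.9% against 23.9% and 22.9% against 21.3%, and its part in these gaps was not tested.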
